A study of Mus musculus with 2 samples.

Results

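The genes described here build and crosslink elastic fibres: Eln, Fbn1, Fbn2, Mfap4, Fbln5, Lox, Loxl1, Loxl2, Loxl3 and Loxl4. They were selected by name, and their probes were found by the RefSeq accession that each array probe carries. The 10 genes had 17 probes among the 39429 probes of the array, and 21368 genes were named in all. All 17 probes were well above background in all 4 RNAs, and all passed the filter on dim probes.

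Elastic fibres give hollow organs and vessels their recoil. Tropoelastin, the soluble product of Eln, is deposited on a scaffold of fibrillin microfibrils with the help of fibulins, and is then joined into an insoluble polymer by lysyl oxidases. These are secreted copper enzymes that oxidise lysine side chains of elastin and collagens. In the wall of a tube such as the ureter, smooth muscle cells and fibroblasts of the surrounding mesenchyme are the usual sources of this matrix.

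Ureters were taken from NMRI mouse embryos at E14.5. The group labelled knockout, called Tbx2/Tbx3cDKO by the study, was Tbx18(cre/+) and carried 2 floxed alleles of each target, Tbx2(fl/fl) with Tbx3(fl/fl). Cre made from the Tbx18 locus acts in the ureteric mesenchyme and in its progenitors. The controls were Tbx18(+/+);Tbx2(fl/?);Tbx3(fl/?), so they carried no Cre and at least 1 floxed allele of each gene, and the label leaves the other allele unspecified. Cre also takes the place of 1 copy of Tbx18 in the knockout group only, so this difference and the recombination of the floxed alleles cannot be told apart. A female pair and a male pair were each hybridised on 1 two-colour array, and the dyes were exchanged between them, so the effects of sex and of dye cannot be told apart. The number of embryos behind each RNA was not given, so p-values measure only the spread between these samples, which may be technical. Precision is limited throughout by there being only 2 arrays (n = 2 pairs).

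Spots well above background made up 70.8% and 71.6% of the green channel and 66.9% and 64.3% of the red, and 0 spots were saturated. Tbx3 had a log2 fold change, labelled knockout over control, of -1.09 ± 0.10 (SD, n = 2 pairs; limma, adjusted p = 0.000642). Tbx2 was higher, at 0.86 ± 0.12 (adjusted p = 0.00189), against its label, and Tbx18 was at 0.15 ± 0.0011 (adjusted p = 0.394). The labels do not place these probes inside or outside the deleted exons, and outside them a probe checks nothing. Every direction given here rests on the labels, and knockout means the RNA labelled so. Lists of tissue markers were also read. They cannot establish tissue identity, since markers of glia and neurons (10 of 10) and of macrophages and leukocytes (8 of 8) passed the filter too. Of 12 urothelial genes 12 were measured above the filter and 0 passed the test (5 at an unadjusted p under 0.05), with Upk1b at -0.29 and Upk3a at 0.27. Of 9 genes of ureteric mesenchyme, a list that holds Tbx18 and both targeted genes, 2 rose and 2 fell, Tbx2 and Tbx3 having the largest changes. For comparison, 3.9% of all genes by their brightest probe passed, and 14.1% had an unadjusted p under 0.05.

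Lox was the member that rose, to 1.35 times its control level at its brighter probe, while its other probe did not pass the test. The other 9 members did not pass the test at any probe. Of the 17 probes 1 was higher and 0 were lower at an adjusted p under 0.05 (limma, adjusted over 25934 probes). Without adjustment 3 were higher and 2 lower at a p under 0.05, which is 29.4% of member probes against 13.8% of all probes. Both Lox probes and both Fbln5 probes are among them, so genes are counted more than once. By the brightest probe of each gene, 2 of 10 members (20%) had an unadjusted p under 0.05, against 14.1% of all genes. Over all probes tested, 1.85% were called higher and 1.92% lower, 3.77% in either direction, so the members' share of calls, 1 of 17, stands on a single probe. The median log2 fold change was 0.10 over the member probes and -0.0014 over all probes. Of the member probes 13 had a mean within 0.2 log2 units of 0 (76.5%), against 88.3% of all probes.

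**Figure D1:**
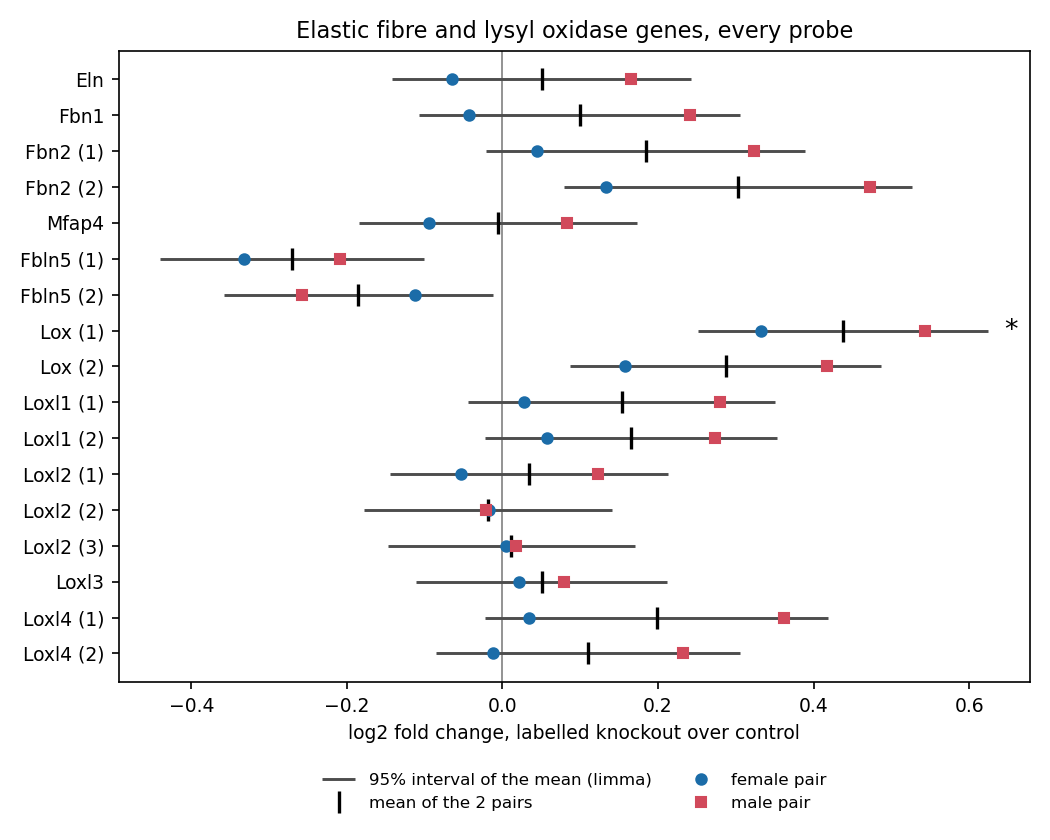
Log2 fold change, labelled knockout over control, of the 17 probes for the 10 genes, where (1) marks the brightest probe of a gene. Circles are the female pair, squares the male pair, vertical ticks the mean, lines its 95% interval from limma, and the asterisk the probe with an adjusted p under 0.05. The Lox (1) probe is farthest to the right with a mean of 0.44, and both Fbln5 probes lie left of 0 in both pairs.

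Eln encodes tropoelastin, the core of the fibre. Its probe (A_52_P609972) had a normalised log2 intensity of 12.55 in the female control, 12.48 in the female knockout, 12.44 in the male control and 12.60 in the male knockout. The groups overlapped, with the knockout lower in the female pair and higher in the male pair. The mean log2 fold change was 0.050 ± 0.16 (SD, n = 2 pairs; limma, adjusted p = 0.931). Its 95% interval ran from -0.14 to 0.24, which is from 0.907 to 1.18 of the control level.

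This stands beside a large fall of contractile smooth muscle genes in the same RNAs. Of 10 smooth muscle markers 8 fell and 0 rose, with a median of -2.57, where 1.91% of all genes were called lower. The markers that did not pass were Smtn at -0.12 (limma, adjusted p = 0.591) and Des at -0.079 (adjusted p = 0.824). Like Eln, they did not show a fall near that median. Actg2, the smooth muscle gamma actin, was at -3.55 ± 0.36 (SD, n = 2 pairs) and Myh11, the smooth muscle myosin heavy chain, at -3.44 ± 0.15. The summed signal of the list was 18.51 and 18.71 log2 units in the controls and 17.00 and 16.97 in the knockouts. Eln, whose product smooth muscle cells secrete in arteries and other tubes, did not show a fall of the size of the marker median. In the female pair Eln was at -0.065 beside a marker median of -2.52, and in the male pair at 0.17 beside -2.63. In bulk tissue, fewer cells of a type and less RNA per cell cannot be told apart.

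**Figure D2:**
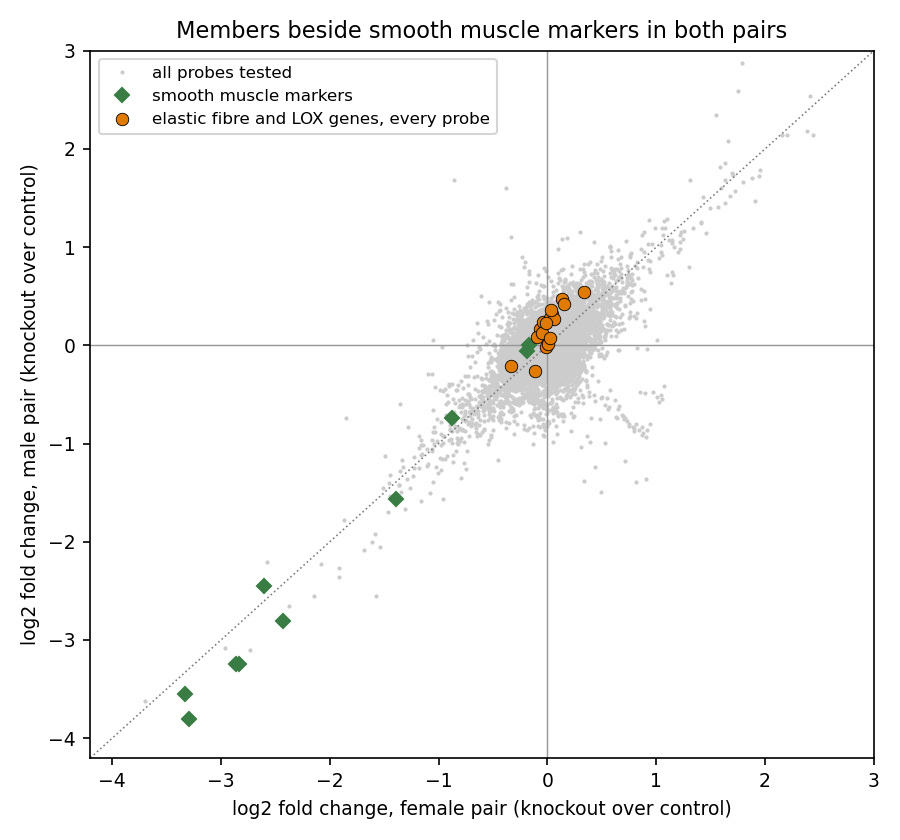
Log2 fold change, labelled knockout over control, for female (x axis) and male (y axis) pairs. Grey points are the 25934 probes tested, diamonds the 10 smooth muscle markers by their brightest probe, circles the 17 member probes, and the dotted line marks equal values. Most smooth muscle markers lie far down the diagonal, and the members sit near the origin, 15 of 17 above the diagonal.

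The microfibril genes Fbn1, Fbn2 and Mfap4 did not pass the test. Fibrillin-1, from Fbn1, is the main microfibril protein of most adult tissues. Its probe (A_51_P467224) read 15.14 in the female control, 15.09 in the female knockout, 15.00 in the male control and 15.24 in the male knockout, so the groups overlapped. The mean log2 fold change was 0.10 ± 0.20 (SD, n = 2 pairs; limma, adjusted p = 0.796), with an interval from -0.11 to 0.31.

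Fibrillin-2, from Fbn2, is made mostly before birth. One probe (A_51_P103850) read 15.19 and 15.32 in the female control and knockout, and 14.91 and 15.38 in the male control and knockout. Both knockouts were above both controls. The mean was 0.30 ± 0.24 (SD, n = 2 pairs), a 1.23-fold higher signal with an interval from 1.06 to 1.44, which did not pass after adjustment over all probes (limma, adjusted p = 0.186). The other probe (A_55_P2121096) had a smaller mean of 0.18 ± 0.20 (adjusted p = 0.432) and an interval from -0.021 to 0.39. There, too, both knockouts were above both controls. Both probes had the larger difference in the male pair, at 0.47 and 0.32, against 0.13 and 0.045 in the female pair.

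Mfap4 encodes a fibrinogen-related glycoprotein that associates with microfibrils and elastin. Its probe (A_55_P2005470) read 16.36 and 16.26 in the female control and knockout and 16.45 and 16.53 in the male control and knockout, so the groups overlapped. The mean was -0.0060 ± 0.13 (SD, n = 2 pairs; limma, adjusted p = 0.994), with an interval from -0.19 to 0.17.

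Fibulin-5, from Fbln5, binds tropoelastin and lysyl oxidase-like proteins and guides elastin onto microfibrils. Fbln5 was the member gene with negative values in both pairs at every probe. The probe A_55_P2088615 read 14.92 and 14.58 in the female control and knockout and 14.83 and 14.62 in the male control and knockout. Both knockouts were below both controls. The mean log2 fold change was -0.27 ± 0.088 (SD, n = 2 pairs), a 1.21-fold lower signal with an interval from 1.07 to 1.36, and it did not pass (limma, adjusted p = 0.118). The other probe (A_52_P278336), whose signal was closer to background, read 7.45 and 7.34 in the female pair and 7.51 and 7.26 in the male pair, with a mean of -0.19 ± 0.10 (adjusted p = 0.316). The direction was shared by both probes, and over the 13 alternatives of processing the first ranged from -0.28 to -0.23 with adjusted p-values from 0.0822 to 0.660. The dimmer probe moved more, to -0.38 with the processed signals and -0.33 with the deposited value table, and it was called in none of its 11 alternatives (limma, adjusted p from 0.160 to 0.946).

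Because the genes targeted in the study encode T-box factors, upstream sequences were searched for a T-box half-site. RefSeq promoters (GRCm38.p6) were matched by symbol for 3 of the 10 members, and the 250 bases before the start site are shown for Fbln5, which carries such a match, and for Fbn1 and Loxl4, which do not. Capitals mark matches on either strand to GGTGTGA, a T-box half-site, and to GGGCGG, the GC box bound by SP1-like factors, with sequences written 5′ to 3′ on the gene's strand.
Fbln5 (chr12:101819120-101819369, minus strand): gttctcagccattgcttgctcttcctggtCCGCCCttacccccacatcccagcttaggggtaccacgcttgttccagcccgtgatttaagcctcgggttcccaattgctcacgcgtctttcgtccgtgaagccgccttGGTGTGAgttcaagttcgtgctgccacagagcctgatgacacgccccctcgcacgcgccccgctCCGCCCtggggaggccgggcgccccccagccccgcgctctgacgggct
Fbn1 (chr2:125506439-125506688, minus strand): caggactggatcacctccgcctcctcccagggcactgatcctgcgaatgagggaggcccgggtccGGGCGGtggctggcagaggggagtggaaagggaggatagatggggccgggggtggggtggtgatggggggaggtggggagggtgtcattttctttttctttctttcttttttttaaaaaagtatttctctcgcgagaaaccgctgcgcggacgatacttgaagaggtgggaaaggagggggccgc
Loxl4 (chr19:42612807-42613056, minus strand): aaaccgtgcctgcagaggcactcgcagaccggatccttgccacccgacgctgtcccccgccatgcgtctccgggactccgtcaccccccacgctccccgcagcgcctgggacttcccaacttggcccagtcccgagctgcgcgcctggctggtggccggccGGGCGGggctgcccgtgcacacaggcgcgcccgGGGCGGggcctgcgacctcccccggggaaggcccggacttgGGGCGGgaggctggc

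The T-box match in Fbln5 lies at positions -112 to -106, with its GC boxes at -221 to -216 and -48 to -43, and no matches overlapped. Loxl4 has 3 GC boxes. The T-box half-site is in 1 of 4 member promoters (Fbln5 has a second listed start without it) and in 3.33% of the 32851 promoters of the same length. The GC box is in 3 of 4 member promoters and in 32.7% of all. The TATA box (TATAAA) and the CArG box, which the serum response factor binds in many smooth muscle genes, are in 0 of 4 member promoters, against 12.4% and 1.47% of all. These are matches of letters, and binding was not measured. No promoter was matched for Lox, the member with a call, or for Eln.

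Lysyl oxidase itself, from Lox, starts the crosslinks of elastin and fibrillar collagens. The probe A_66_P138929 had a normalised log2 intensity of 12.85 in the female control, 13.18 in the female knockout, 12.77 in the male control and 13.32 in the male knockout. Both knockouts were above both controls, as they were for probes of Fbn2, Loxl1, Loxl3 and Loxl4 that did not pass. The share of all probes separated in this way was not counted. The log2 fold change of the Lox probe was 0.33 for females and 0.54 for males, with a mean of 0.44 ± 0.15 (SD, n = 2 pairs; limma, adjusted p = 0.0335). This is a 1.35-fold higher signal, with an interval from 1.19 to 1.54. Of the 25934 probes tested, 352 had a larger mean.

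A second Lox probe (A_55_P2032678) gave the same direction in both pairs and a smaller value. It read 12.03 and 12.18 in the female control and knockout and 11.73 and 12.15 in the male control and knockout, and both knockouts were above both controls. The mean was 0.29 ± 0.18 (SD, n = 2 pairs; limma, adjusted p = 0.160), a 1.22-fold higher signal with an interval on the log2 scale from 0.087 to 0.49. The first probe exceeded the second by 0.18 for females and by 0.13 for males.

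The Lox rise was positive in all 13 alternatives of processing, from 0.36 to 0.47, but its call was kept in 9 of them. It ended with the scanner software's processed signals (adjusted p = 0.0955), median centring (0.149), the deposited value table (0.130) and the mean over probes of a gene (0.0748).

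**Figure D3:**
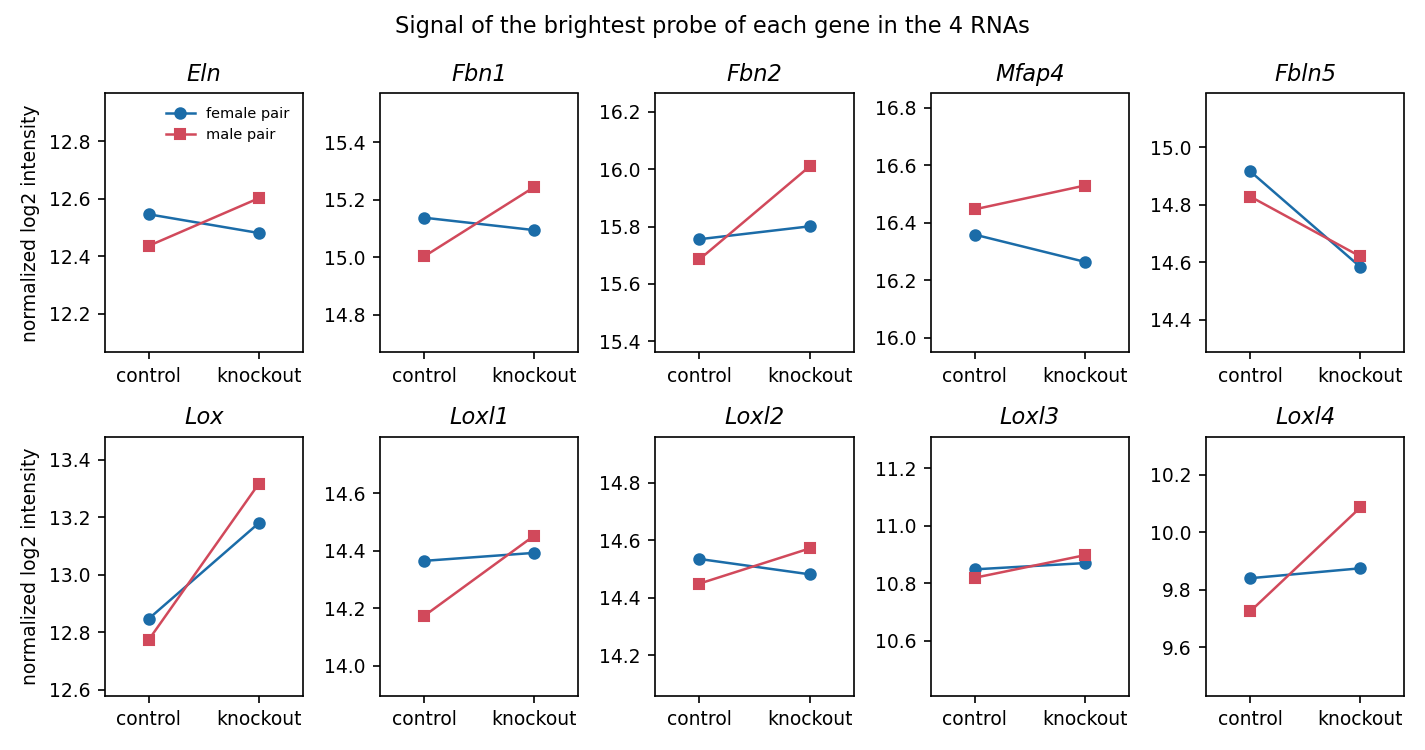
Normalised log2 intensity of the brightest probe of each of the 10 genes in the control and the knockout RNA of the female pair (circles) and of the male pair (squares). Each panel spans the same range of 0.9 log2 units. Lox rises and Fbln5 falls in both pairs, and in the other panels at least 1 of the 2 lines is nearly flat or the lines run in opposite directions.

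Loxl1 encodes the lysyl oxidase most closely tied to elastin, which is targeted to fibres through fibulin-5. Its probe A_51_P304239 read 14.36 and 14.39 in the female control and knockout and 14.17 and 14.45 in the male control and knockout. Both knockouts were above both controls, with values close in the female pair and apart in the male pair. The mean was 0.15 ± 0.18 (SD, n = 2 pairs; limma, adjusted p = 0.528), with an interval from -0.044 to 0.35. The other probe (A_55_P2096226) gave 0.17 ± 0.15 (adjusted p = 0.446), and the 2 probes differed by 0.030 for females and -0.0063 for males.

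Loxl2, Loxl3 and Loxl4 belong to the branch of the family with scavenger receptor domains ahead of the catalytic domain. Loxl2, which crosslinks collagen IV among other substrates, had 3 probes, whose means lay close together. The probe A_52_P480351 read 14.53 and 14.48 in the female control and knockout and 14.45 and 14.57 in the male control and knockout, so the groups overlapped. Its mean was 0.034 ± 0.12 (SD, n = 2 pairs), and the other probes were at -0.019 ± 0.0026 (A_55_P2131348) and 0.011 ± 0.0089 (A_51_P275949). None of the 3 passed (limma, adjusted p from 0.958 to 0.988), and their intervals together ran from -0.18 to 0.21.

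Loxl3, a family member known for its part in palate and spine development, had a probe (A_55_P2277019) that read 10.85 and 10.87 in the female control and knockout and 10.82 and 10.90 in the male control and knockout. Both knockouts were slightly above both controls. The mean for Loxl3 was 0.050 ± 0.040 (SD, n = 2 pairs; limma, adjusted p = 0.908), with an interval from -0.11 to 0.21. Among Loxl4 probes, A_55_P2044143 read 9.84 and 9.87 in the female control and knockout and 9.73 and 10.09 in the male control and knockout, so the difference lay in the male pair. Both knockouts were above both controls at this probe. Its mean was 0.20 ± 0.23 (adjusted p = 0.431), with an interval from -0.022 to 0.42. The other Loxl4 probe (A_66_P107231) was at 0.11 ± 0.17 (adjusted p = 0.724).

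Within the family, then, the brighter Lox probe passed the test, and neither the other Lox probe nor any probe of the 4 paralogues did. The difference between Lox and the paralogues was not tested. The 10 crosslinking probes had a median of 0.13, and the 7 probes for elastin, microfibril and assembly genes had a median of 0.050. Neither median was stable between pairs, at 0.025 and 0.25 for crosslinking probes and -0.065 and 0.17 for the others in females and males, and the difference between these sets was not tested.

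Most member probes differed between the pairs in 1 direction. In 15 of 17 probes the log2 fold change was higher in the male than in the female pair, as it was in 55.3% of all probes. Among probes with a mean log2 intensity above 12, this held for 11 of 11 member probes and 57.1% of all probes. The median over the member probes was 0.0050 for females and 0.23 for males, while over all probes it was -0.0083 and 0.0092. The exceptions were the dimmer Fbln5 probe, with a male minus female difference of -0.15, and the Loxl2 probe A_55_P2131348, with -0.0036. Among the other 15 probes the difference ran from 0.013 for a Loxl2 probe to 0.34 for an Fbn2 probe. With 1 pair of each sex and dye orientation the difference has no test, and its part in the Lox call was not tested.

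Other genes of elastic fibre assembly, a list of 55, were read by the brightest probe of each gene. Of the 50 that passed the filter on dim probes, 1 rose, 2 fell and 47 did not pass (limma, adjusted p under 0.05), which is 6% called against a background of 3.9% of genes in either direction (1.99% higher and 1.91% lower). At an unadjusted p under 0.05, 10 were higher and 5 lower, 30% of the list against 14.1% of all genes. The median was 0.036, against -0.0022 over all genes by their brightest probe, and 41 of 50 were higher in the male than in the female pair.

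Mmp9 encodes gelatinase B, a metalloproteinase that can degrade elastin. It read 8.17 in the female control, 7.24 in the female knockout, 8.34 in the male control and 7.63 in the male knockout, and both knockouts were below both controls. The mean log2 fold change was -0.82 ± 0.16 (SD, n = 2 pairs; limma, adjusted p = 0.00324), a 1.77-fold lower signal, and Mmp9 was called in all 13 alternatives. Its knockout signals were dim, and the size of the fall moved with the processing. The mean ran from -0.67 with no background subtraction to -1.31 with the processed signals. None of the other 5 genes of degradation and its inhibition that could be tested (Mmp2, Mmp14 and the inhibitors Timp1, Timp2 and Timp3) passed. Mmp12, macrophage elastase, did not pass the filter on dim probes. Leukocytes can also make Mmp9. Of 8 macrophage and leukocyte markers 0 passed (limma; 4 at an unadjusted p under 0.05, against 14.1% of all genes), with a median of 0.16. Lyz2 was at 0.32 and Ptprc at 0.29. The part of these cells in the Mmp9 value was not tested.

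Tgm2 encodes tissue transglutaminase, which joins matrix proteins, fibrillin among them, by bonds other than those of lysyl oxidases. Its brightest probe read 15.47 and 15.01 in the female control and knockout and 15.34 and 15.04 in the male control and knockout, and both knockouts were below both controls. The mean was -0.38 ± 0.11 (SD, n = 2 pairs; limma, adjusted p = 0.0432), a 1.30-fold lower signal, and its other probe was at -0.34 ± 0.18 (adjusted p = 0.0980). The call was kept in 8 of 13 alternatives, with adjusted p-values from 0.0246 to 0.287.

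Adamtsl5 encodes a secreted ADAMTS-like protein that binds fibrillin microfibrils. It read 10.92 and 11.31 in the female control and knockout and 10.67 and 11.28 in the male control and knockout, and both knockouts were above both controls. The mean was 0.50 ± 0.15 (SD, n = 2 pairs; limma, adjusted p = 0.0196), a 1.42-fold higher signal. Its other probe gave 0.24 ± 0.052 (adjusted p = 0.153). The call was kept in 10 of 13 alternatives.

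By role, a grouping made after the values were seen, the 17 tested partners of elastin and microfibrils had 0 called genes (limma), with 4 higher and 2 lower at an unadjusted p under 0.05. They include the fibulins Fbln1, Fbln2, Efemp1 and Efemp2, the microfibril proteins Mfap2 and Mfap5 and the emilins. Fbln2 had the highest mean, 0.38 ± 0.30 (SD, n = 2 pairs; adjusted p = 0.137), and Emilin3 the lowest, -0.31 ± 0.038 (adjusted p = 0.0639). Both are named with their values already known. Among 11 tested genes of latent TGF-beta storage and activation 0 were called (limma), with 2 higher at an unadjusted p under 0.05. Of 8 ADAMTS and ADAMTS-like genes 1 rose (3 higher and 1 lower at an unadjusted p under 0.05), and of 8 genes for processing, copper supply and crosslinking 1 fell (1 higher and 1 lower). Over all genes by their brightest probe, 3.9% were called and 14.1% had an unadjusted p under 0.05. Classes this small were not tested against that background. Bmp1, whose proteinase activates pro-lysyl oxidase, was at -0.13 ± 0.26 (adjusted p = 0.741), and the copper transporter Atp7a, which supplies lysyl oxidases, was at 0.14 ± 0.039 (adjusted p = 0.476). The same holds for Bmp1 and Atp7a.

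**Figure D4:**
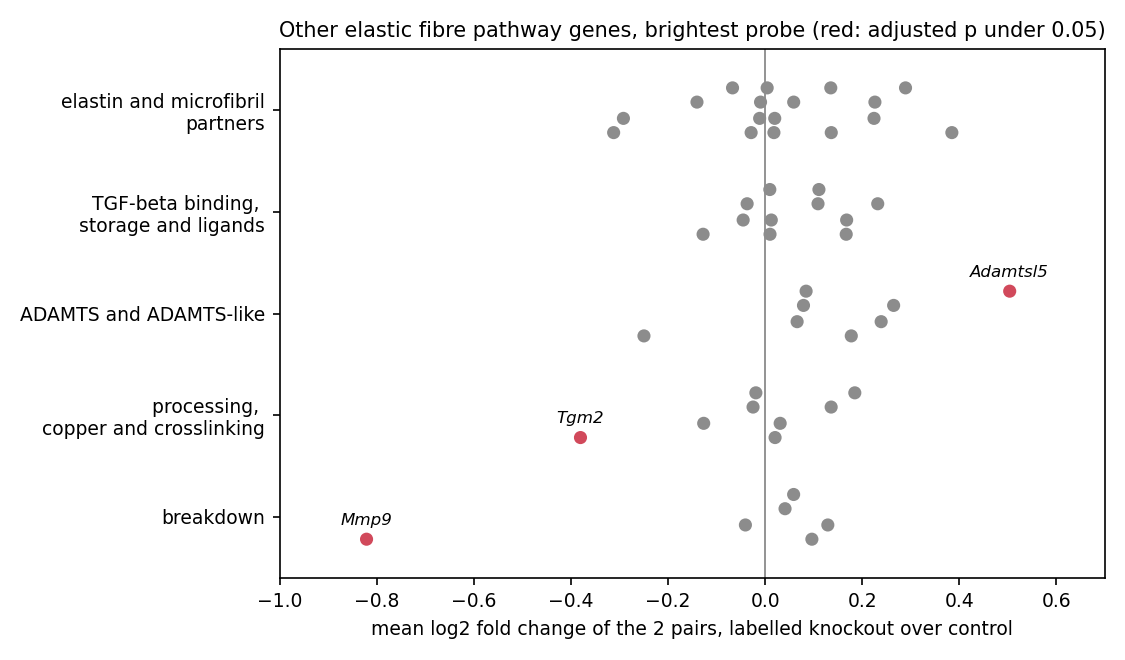
Mean log2 fold change of the 2 pairs, labelled knockout over control, for the 50 tested genes of the elastic fibre list by their brightest probe, grouped by role. Red points passed at an adjusted p under 0.05 and are named. Mmp9 and Tgm2 lie left of 0, Adamtsl5 lies right of 0, and the 47 grey genes lie between -0.31 and 0.38.

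Markers of other cell types were read in the same RNAs. The shares to set beside them, over all genes by their brightest probe, were 3.9% called and 14.1% at an unadjusted p under 0.05. Of 9 markers of adventitia and other fibroblasts 1 fell and 0 rose (limma; 4 at an unadjusted p under 0.05), with Pdgfra at -0.39 ± 0.051 (SD, n = 2 pairs) and Cd34 at 0.26 ± 0.024. Their summed signal was 19.68 and 19.74 log2 units in the controls and 19.83 and 19.78 in the knockouts. Of 10 endothelial markers 0 passed (3 at an unadjusted p under 0.05), with a median of 0.14, a summed signal of 16.91 in each control and of 17.00 and 17.21 in the knockouts, Egfl7 at 0.32 and Kdr at 0.30. Of 4 tested cartilage markers 3 fell and 1 rose, with Col9a3 at -0.54 and Cnmd at 0.51. Of 10 markers of glia and neurons 3 rose, with Fabp7 at 0.71 and Prph at 0.69. Of 5 tested nephron markers 0 passed (1 at an unadjusted p under 0.05), with Six2 at 0.38 and Wt1 at 0.38. The pairs disagreed, at -0.34 in females and 1.11 in males for Six2 and at -0.032 and 0.79 for Wt1. The part of any of these cells in the values of Lox and Fbln5 was not tested.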

How the data were processed

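The authors' scanner files give each spot's intensity and local background in both dyes. The submitters' processing notes name Agilent Feature Extraction 10.7.3.1. Its processed signals are already corrected for background and dye, per the file headers. The deposited table of values gives a signed fold per probe, and its making, centring and floor were not stated. Its median was 1 on both arrays, and it ran in the same direction as the processed signals turned to knockout over control (correlations of 0.982 and 0.985 over 24806 probes).

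Mean intensities were corrected with normexp (offset 50) and normalized by loess within arrays, with control spots and a filler probe at weight 0. Non-uniform spots (186 and 223, 0 of them in member probes) were left out, and the 4 spots of a probe were averaged. Of 39396 probes measured on both arrays, 25934 had more than 0.5 of their spots well above background in both controls or both knockouts. Levels were also scaled between arrays (Aquantile). A RefSeq table named 28328 probes, and 11101 kept the file's name.

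Every probe was tested in R 4.3.3 with limma 3.58.1 and Benjamini-Hochberg adjustment, with 1 residual and 5.63 prior degrees of freedom, so the spread is mostly that pooled over probes. Intervals are moderated and cover 95%. These steps were also run on simulated arrays. The simulation held no sex effect and left out dim probes, so it cannot check the steps for either. The members and lists were chosen with earlier results of these data known. Named genes were all members, Tbx2, Tbx3, Tbx18, called genes of the pathway list, and the 2 largest changes of each marker list. Smtn and Des were named with their values already known. Alternatives concerned background, normalization, filter, probes, variance model, the deposited table and each replicate.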

Additional observations from a re-analysis of the deposited data

Results flagged for a closer look

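Several values were negative in 1 pair and positive in the other. There was 1 pair per sex, labelled with exchanged dyes, so none of these differences was tested. As male minus female log2 fold change, the members concerned were Fbn1 at 0.28, the Loxl4 probe A_66_P107231 at 0.24, Eln at 0.23, Mfap4 at 0.18 and the Loxl2 probe A_52_P480351 at 0.18. The elastic fibre pathway list had a median of -0.016 in females and 0.13 in males, 0.14 apart. Among the markers, Six2 differed by 1.44, Egfl7 by 1.06 and Wt1 by 0.82.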

How the results depend on the processing

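With the processed signals, median centring and the deposited value table, 305, 170 and 162 probes were called higher over the whole table and 302, 199 and 186 lower, in place of 480 and 498. Under each of these 3 settings 0 member probes were called (limma; 5, 3 and 5 at an unadjusted p under 0.05), and of the pathway list 0 genes were higher (9, 6 and 7 at an unadjusted p under 0.05) and 1 was lower. Of all probes 2.34%, 1.42% and 1.34% were called under these settings, and the share at an unadjusted p under 0.05 was not counted. With the mean over probes of a gene 0 members were called (3 at an unadjusted p under 0.05), and 1 pathway gene was lower with that setting and with outlier spots kept. Of all genes 3.62% were called with the mean over probes, and of all probes 3.35% with outlier spots kept. The share at an unadjusted p under 0.05 was not counted for them either. Under the other 8 of 13 alternatives the counts of calls for all probes, the members and the pathway list stayed within 1.5 times those reported. Tbx2 and Tbx3 kept direction and call in all 13, and Tbx18 was called in 0 of them. The causes were not tested. Leaving out a replicate leaves 1 array and no test, and then the median over the member probes was 0.23 without replicate 1 and 0.0050 without replicate 2. The reported test is itself paired, since each ratio compares the RNAs of 1 pair. The deposited table holds values of exactly 1 for 33.7% and 34.1% of probes. All member probes were well above background, but the dimmest, the Fbln5 probe A_52_P278336, ran from -0.15 with no background subtraction to -0.38 with the processed signals.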
